A study of Mus musculus with 8 samples.

Results

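The Prss genes are the mouse genes named as serine proteases, and their members were taken as every gene of the deposited table whose symbol begins with Prss and a number. The rule found 33 members among 19906 genes and used no measured value, but the family was chosen with earlier results of these data known. Whole testes of 4 Tmem232-/- and 4 Tmem232+/+ mice, all 2 months old, were sequenced as 1 library per mouse, to ask which testis transcripts change when Tmem232 is lost. The Tmem232-/- allele was made in C57BL/6 embryos by a CRISPR-Cas9 deletion of 4 exons that shifts the reading frame and is carried by every cell of the mouse, and Tmem232+/+ mice carry the intact gene. How many founder lines the knockout mice came from was not given in the sources used here.

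Trypsin-like serine proteases cut proteins with a serine that is activated by a histidine and an aspartate, and most are made as inactive precursors. Many members of this family are made chiefly in the testis, and several of them appear at a set step of sperm formation: some in spermatocytes, the germ cells in meiosis, and others in spermatids, the haploid cells that build the acrosome and the flagellum. Several act on the sperm surface, where PRSS37 and PRSS55 are needed for mature ADAM3, a protein that mouse sperm need to enter the oviduct and bind the egg coat. The shared name does not make every member an active trypsin-like enzyme: PRSS50 carries a threonine in place of the catalytic serine, and PRSS16, a protease of the thymus, belongs to another peptidase fold.

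The total counts per library lay between 15428421 and 16350871, and values below are counts scaled by TMM to a library of 1000000 (CPM) unless the unit FPKM, which is per length of transcript, is named. Tmem232 itself had 122 to 148 CPM in the libraries labelled knockout and 106 to 111 CPM in those labelled wild type, a log2 fold change of 0.27 (standard error 0.0721, edgeR adjusted p = 0.0335, range over the alternatives 0.00276 to 0.114). The call was lost with the replicate number as a block and in 4 of 8 fits that left out a library (replicates 1 and 2 labelled knockout, replicates 2 and 4 labelled wild type). The gene the labels say is disrupted was thus not lower under the knockout label, although the deletion leaves most exons in place to be counted. Its count did not verify the labels, so all directions below are those of the labels. In RNA from a whole testis, fewer cells of a type and less RNA per cell cannot be told apart.

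Of the 33 members, 27 had enough counts to be tested by the quasi-likelihood test of edgeR. At an adjusted p under 0.05, 9 of these 27 (33.3%) differed between the genotypes, beside 11.8% of all 15787 tested genes. Prss51, Prss52, Prss37, Prss55, Prss58, Prss54 and Prss46 were higher in the knockout-labelled libraries, 7 members beside 10.3% of all tested genes. Prss50 and Prss8 were lower, 2 members beside 1.46% of all tested genes, and the number of lower members was 1 or 0 in 7 of the 8 fits without a library and 1 under DESeq2, without a filter on low counts, with at least 10 counts in every library and with the replicate block. Prss51, Prss52 and Prss8 had under 10 counts in libraries of the label where they were low, and passed the filter on low counts through the other label. With at least 10 counts required in every library these genes were not tested, and 5 members were higher and 1 lower. Prss51, Prss52, Prss37, Prss55 and Prss58 passed the test and were at least 2-fold higher, as did 5.23% of all tested genes. The median log2 fold change of the tested members was -0.04 and that of all tested genes -0.05, so that most members lay near the centre of all genes and a few stood far above it. For each of the 9 the libraries of the labels did not overlap. Of all tested genes, 11.8% were separated in this way as higher and 6.88% as lower. The exact permutation test gave a two-sided p of 0.0286, the lowest value that 70 arrangements of 8 libraries can give. The 9 were picked by a test on these same libraries, so that neither result adds support to the calls.

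**Figure D1:**
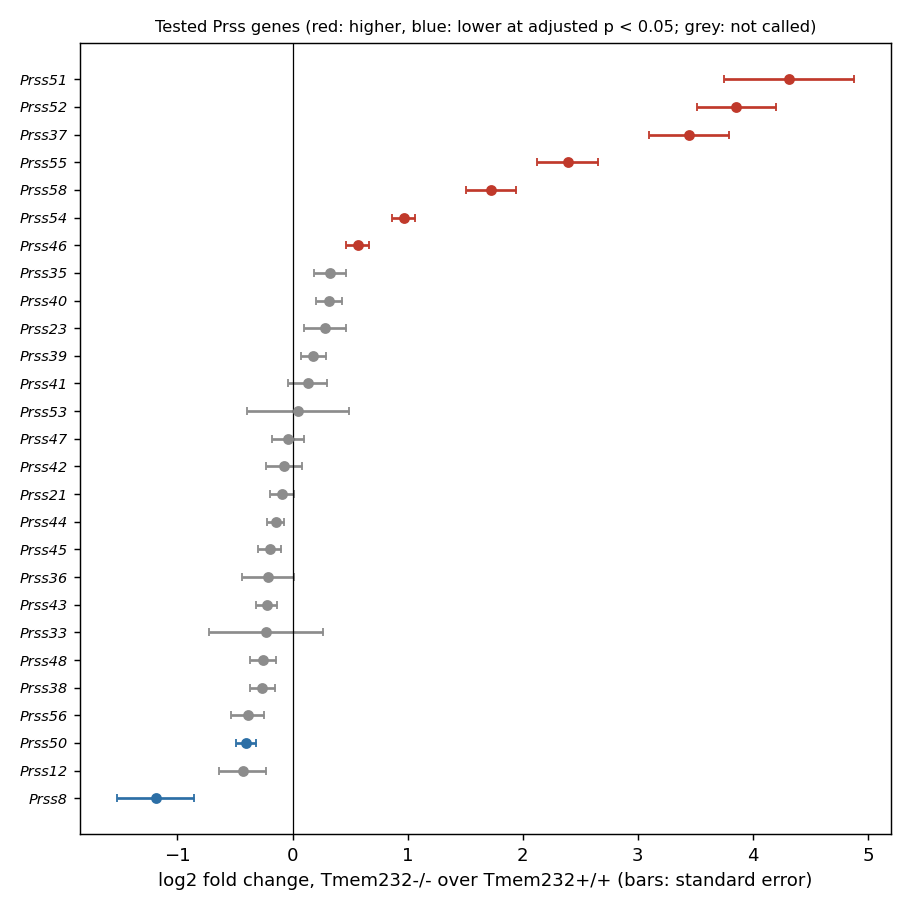
Fitted log2 fold change (horizontal axis, libraries labelled Tmem232-/- over those labelled Tmem232+/+) of the 27 tested members, 1 point per gene with its standard error as a bar. Prss51 is highest at 4.31 and Prss8 lowest at -1.19, and the 18 members in grey, which did not pass the test, lie between -0.43 and 0.33.

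Prss37, needed for ADAM3 on sperm and for male fertility in mice, is a minus-strand gene at chr6:40514820-40519535 (gene positions are those of RefSeq on GRCm38.p6). Its values were 46.5, 31.9, 24.8 and 46.0 CPM in replicates 1 to 4 labelled knockout, and 2.56, 1.45, 6.40 and 3.32 CPM in replicates 1 to 4 labelled wild type. The groups were far apart, and the lowest knockout-labelled library was replicate 3. The means were 37.3 ± 10.7 and 3.43 ± 2.12 CPM (SD, n = 4 each), a log2 fold change of 3.45 (standard error 0.346, edgeR adjusted p = 5.95e-05, range over the alternatives 1.24e-11 to 0.000829). This is a 10.9-fold difference, and it moved Prss37 from place 18 to place 4 among the members in FPKM. Per length, Prss37 had 3.87 ± 2.41 FPKM in the wild-type-labelled libraries and 41.2 ± 11.9 FPKM in the others (SD, n = 4 each).

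Prss55, the other member needed for mature ADAM3, encodes a protein held on the sperm membrane by a lipid (GPI) anchor. Its levels were 24.4, 21.2, 15.4 and 25.4 CPM in replicates 1 to 4 labelled knockout and 3.74, 2.12, 6.40 and 4.24 CPM in those labelled wild type. Again the groups did not overlap, with replicate 3 lowest on the knockout side and replicate 3 highest on the wild-type side. The mean rose from 4.12 ± 1.76 to 21.6 ± 4.52 CPM (SD, n = 4 each), a log2 fold change of 2.39 (standard error 0.264, edgeR adjusted p = 0.000101, range 1.45e-17 to 0.00116). Prss37 had fewer counts than Prss55 or as many in every wild-type-labelled library and more in every knockout-labelled library. Their ratio of counts was 0.788 ± 0.149 in the former and 1.71 ± 0.182 in the latter (SD, n = 4 each). This ratio and the ratios and sums below were chosen after the values were seen and are given without a test.

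Prss51 and Prss52 share a stretch of chromosome 14 with Prss55. Prss51 had 64, 42, 23 and 54 counts in replicates 1 to 4 labelled knockout, or 4.26, 2.64, 1.46 and 3.32 CPM. In replicates 1 to 4 labelled wild type it had 2, 0, 6 and 1 counts, or 0.125, 0, 0.380 and 0.0614 CPM, so that it was close to undetected there. Its log2 fold change of 4.31 (standard error 0.564, edgeR adjusted p = 0.000303, range 1.54e-10 to 0.00234) was the highest of any member in this fit. The libraries pooled by label held 183 and 9 counts, a ratio of 20.9 after allowing for depth with an exact 95% interval of 10.8 to 46.3 that covers counting error only. Without replicate 3 labelled wild type, which holds 6 of the 9 counts, the log2 fold change was 5.43. The order of the members depended on the measure: as log2(FPKM + 0.1) the difference was 3.535 for Prss51 and 3.735 for Prss52.

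Prss52 had 11.7, 10.4, 5.38 and 10.6 CPM in replicates 1 to 4 labelled knockout and 0.935, 0.303, 0.950 and 0.430 CPM in those labelled wild type. Every knockout-labelled library exceeded the highest wild-type-labelled library by several fold, and replicate 3 was again the lowest of them. The means were 9.52 ± 2.82 and 0.654 ± 0.337 CPM (SD, n = 4 each), a log2 fold change of 3.85 (standard error 0.342, edgeR adjusted p = 3.24e-05, range 3.95e-25 to 0.000659). An annotated long noncoding RNA, Gm17116, shares 2553 bases with Prss52 and was not analysed here, and whether the counting used the strand of the reads was not given in the sources used here.

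Prss58 lies on chromosome 6 on the same strand as Prss37, and its whole span of 5126 bases lies within the annotated Tcrb locus, which was not analysed here, so that its counts are uncertain. The libraries gave 14.4, 10.2, 7.84 and 15.2 CPM in replicates 1 to 4 labelled knockout and 2.93, 3.63, 4.24 and 3.62 CPM in those labelled wild type. The wild-type-labelled libraries lay close together and all below the others. The mean went from 3.61 ± 0.537 to 11.9 ± 3.49 CPM (SD, n = 4 each), a log2 fold change of 1.72 (standard error 0.215, edgeR adjusted p = 0.000224, range 3.69e-12 to 0.00201).

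**Figure D2:**
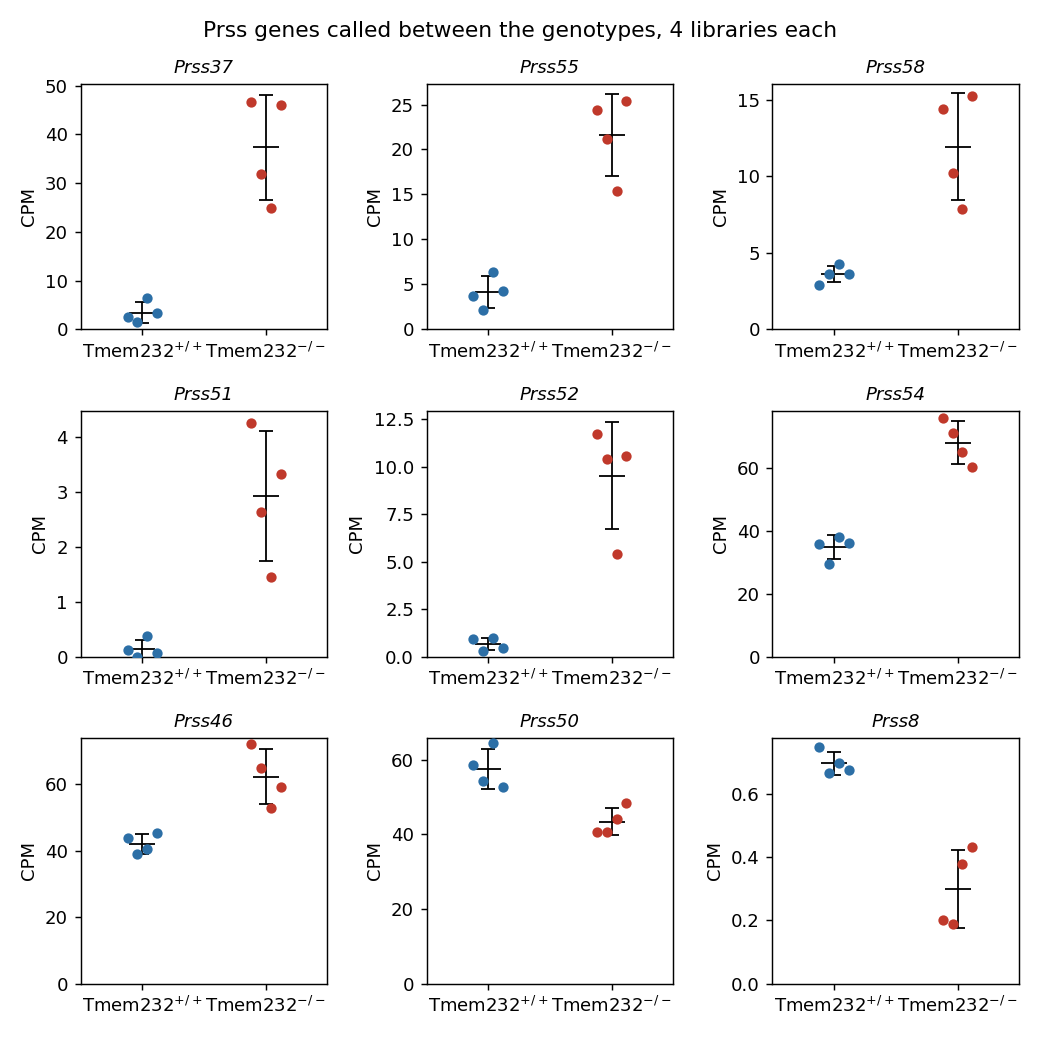
CPM (vertical axis, from 0, with its own scale for each gene) of the 9 members that passed the test, 1 point per library, blue for Tmem232+/+ and red for Tmem232-/- labels, with the mean and SD of 4 libraries as bars. In every panel the points of the labels do not overlap, and Prss51 has at most 0.380 CPM in a library labelled Tmem232+/+.

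Replicate 3 was the lowest knockout-labelled library for each of the 5 members that were 2-fold higher or more, and replicate 3 was the highest wild-type-labelled library for each of the 5. The same held for Prss21, Prss33, Prss39 and Prss40, which did not pass the test, so that this order is not particular to the 5. Summed over these 5 members, replicates 1 to 4 had 101, 76.5, 54.8 and 100.5 CPM under the knockout label and 10.3, 7.51, 18.4 and 11.7 CPM under the wild-type label. The summed CPM of 12 markers of elongating spermatids, such as the protamines Prm1 and Prm2 that pack the sperm DNA, was 2254, 1790, 1353 and 2125 in replicates 1 to 4 labelled knockout. In those labelled wild type it was 440, 342, 690 and 496, so that the markers put the libraries of each label in the same order as the 5 members did. All 12 of these markers passed the test as higher, with a median log2 fold change of 2.80. Prm2 had 67.86 to 196.3 CPM under the knockout label and only 2.664 to 12.54 CPM under the wild-type label. Prm1 had 44.27 to 131.8 CPM and 1.635 to 7.536 CPM. Whether the wild-type-labelled levels are those of an ordinary adult testis was not tested, so the fold changes are relative to these libraries only. Of 10 markers of round spermatids 9 passed as higher, and their sum was 900 to 1100 CPM against 512 to 614 CPM. The part of these shifts in the levels of the Prss members was not tested.

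**Figure D3:**
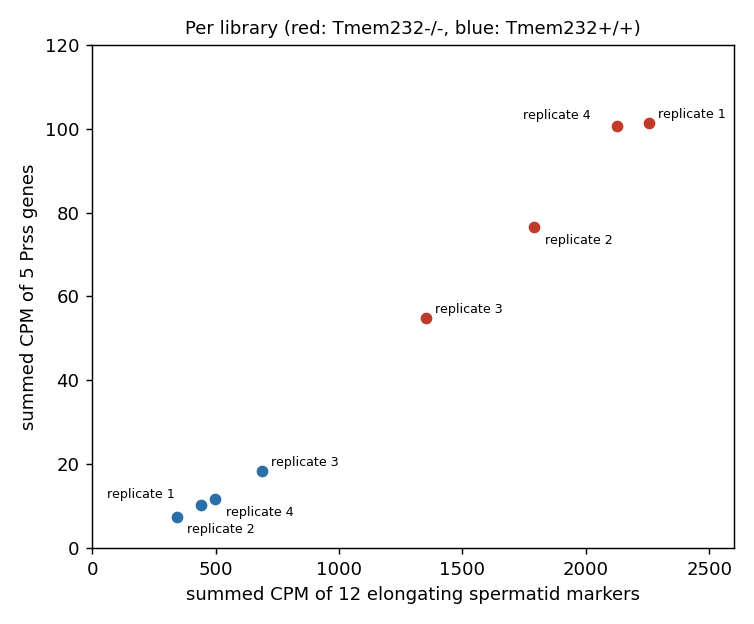
Summed CPM of Prss37, Prss51, Prss52, Prss55 and Prss58 (vertical axis) against the summed CPM of 12 elongating spermatid markers (horizontal axis), 1 point per library. Replicate 3 labelled Tmem232-/- has the lowest sums of its label (54.8 and 1353) and replicate 3 labelled Tmem232+/+ the highest of its label (18.4 and 690).

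Markers of other germ cells and of somatic cells were compared in the same way. Of 7 spermatogonial markers 3 were lower and of 10 spermatocyte markers 2, beside 1.46% of all tested genes. The spermatogonial markers summed to 189 to 208 CPM under the knockout label and 231 to 257 CPM under the other. The spermatocyte markers summed to 2660 to 3379 and 3077 to 3481 CPM. In edgeR 0 of 7 Leydig cell markers passed the test (5 had an unadjusted p under 0.05 and DESeq2 called 2, all higher), with sums of 477 to 707 and 307 to 537 CPM. The corresponding count was also 0 of 7 for Sertoli cells, 0 of 6 for macrophages and 0 of 5 for endothelial cells, of which 1, 0 and 1 had an unadjusted p under 0.05 and DESeq2 called 0. The markers of mast cells and basophils, cells known for other trypsin-like proteases, summed to at most 0.623 CPM in any library, those of pancreatic acinar cells to at most 2.31 CPM and those of neutrophils to at most 3.94 CPM. The markers of the epididymis summed to 0 to 6.39 CPM under the knockout label and 0.184 to 32.0 CPM under the wild-type label, where replicate 1 was highest, and the 1 gene of this list that was tested did not pass (log2 fold change -2.54).

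Prss54, whose protein is found in the acrosome, was abundant under both labels. Its levels were 75.7, 71.0, 64.9 and 60.1 CPM in replicates 1 to 4 labelled knockout and 35.8, 29.2, 38.0 and 36.0 CPM in those labelled wild type. The groups were separated by more than their own ranges. The means of 67.9 ± 6.87 and 34.8 ± 3.81 CPM (SD, n = 4 each) gave a log2 fold change of 0.97 (standard error 0.0985, edgeR adjusted p = 6.51e-05, range 1.86e-16 to 0.00108). Unlike the 5 members above, its lowest knockout-labelled library was replicate 4, but like them its highest wild-type-labelled library was replicate 3.

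Prss39 (TESP1), which encodes an acrosomal protease, was the most abundant member per length under both labels, with 119 ± 19.0 FPKM in the wild-type-labelled libraries and 132 ± 11.4 FPKM in the others (SD, n = 4 each). Its CPM in replicates 1 to 4 were 150.4, 141, 127 and 153 under the knockout label and 126, 104, 153 and 120.5 under the wild-type label, which overlap. The log2 fold change was 0.18 (standard error 0.109, edgeR adjusted p = 0.332, range 0.0306 to 0.599), and the call appeared only without replicate 3 labelled wild type (0.32, adjusted p = 0.0306).

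Prss40 (TESP2), its neighbour on chromosome 1, had 22.3, 20.1, 16.8 and 21.6 CPM in replicates 1 to 4 labelled knockout and 15.6, 15.1, 19.1 and 15.1 CPM in those labelled wild type. Replicate 3 was the lowest of the former and the highest of the latter, which made the groups overlap. The log2 fold change of 0.32 (standard error 0.115, edgeR adjusted p = 0.111, range 0.0192 to 0.269) passed the test only when replicate 3 of either label was left out (0.40 without the knockout-labelled library, adjusted p = 0.0445, and 0.43 without the wild-type-labelled library, adjusted p = 0.0192).

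Prss21, known as testisin, a GPI-anchored protease of spermatids and sperm, had 46.2, 43.9, 39.6 and 51.1 CPM in replicates 1 to 4 labelled knockout and 49.3, 41.5, 55.7 and 46.1 CPM in those labelled wild type. These ranges overlap almost entirely. The log2 fold change was -0.09 (standard error 0.103, edgeR adjusted p = 0.623), and it was 0.02 without replicate 3 labelled wild type, so that no direction can be read from it. A GPI anchor is thus shared by Prss55, which rose 5.24-fold, and Prss21, which did not pass the test.

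A row of 6 members occupies 67382 bases of chromosome 9, all on the plus strand, in the order Prss42, Prss44, Prss43, Prss45, Prss46 and Prss50. Prss42, Prss43 and Prss44 are known as testis-specific serine proteases that appear in spermatocytes. Prss46 passed the test as higher, Prss50 as lower and the other 4 did not pass it. Prss46 had 72.3, 64.8, 53.0 and 59.2 CPM in replicates 1 to 4 labelled knockout and 43.7, 38.9, 40.5 and 45.4 CPM in those labelled wild type. The groups did not overlap, and the means of 62.3 ± 8.21 and 42.1 ± 2.96 CPM (SD, n = 4 each) gave a log2 fold change of 0.56 (standard error 0.0973, edgeR adjusted p = 0.00208, range 1.71e-06 to 0.00925).

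Prss50, the next gene after Prss46, went the other way. Its values were 40.7, 40.5, 44.1 and 48.4 CPM in replicates 1 to 4 labelled knockout and 58.6, 54.3, 64.6 and 52.6 CPM in those labelled wild type. No library of a label reached those of the other, but the nearest were 48.4 and 52.6 CPM. The mean fell from 57.5 ± 5.34 to 43.5 ± 3.68 CPM (SD, n = 4 each), a log2 fold change of -0.40 (standard error 0.0864, edgeR adjusted p = 0.0088). Its adjusted p ranged from 0.00177 to 0.0574 over the alternatives, and the highest of these, without replicate 1 labelled wild type, did not pass the test.

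Because Prss46 and Prss50 differed in opposite directions without overlap, the ratio of their counts had to separate the labels. This ratio is a description and adds no support to the calls. It was 1.78, 1.60, 1.20 and 1.22 in replicates 1 to 4 labelled knockout and 0.746, 0.717, 0.627 and 0.862 in those labelled wild type. Prss46 thus had more counts than its neighbour in all 4 libraries of the former label and fewer in all 4 of the latter. Both counts come from the same library, so depth and scaling do not enter this ratio.

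The sequences just before these genes are shown because the neighbours differed in opposite directions. They end at the base before the annotated gene start, on GRCm38.p6 from RefSeq, at chr9:110844256-110844505 for Prss46 and chr9:110857714-110857963 for Prss50, both on the plus strand. The deposited span of Prss50 begins at 110857899, so by that span the last bases shown for it lie inside the gene. Capitals mark the 50 bases nearest to the RefSeq gene start.
Prss46: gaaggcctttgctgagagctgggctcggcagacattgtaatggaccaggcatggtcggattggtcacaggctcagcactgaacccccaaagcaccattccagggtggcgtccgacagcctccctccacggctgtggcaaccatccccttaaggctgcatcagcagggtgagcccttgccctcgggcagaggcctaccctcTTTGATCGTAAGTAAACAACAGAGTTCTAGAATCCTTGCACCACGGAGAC
Prss50: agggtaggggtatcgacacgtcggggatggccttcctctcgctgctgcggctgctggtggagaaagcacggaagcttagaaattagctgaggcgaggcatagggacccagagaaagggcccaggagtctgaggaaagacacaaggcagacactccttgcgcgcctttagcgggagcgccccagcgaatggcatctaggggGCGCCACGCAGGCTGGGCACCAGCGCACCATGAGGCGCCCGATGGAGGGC
G and C make up 58.0% of the bases shown for Prss46 and 63.6% of those shown for Prss50, and the median over the 32851 windows of the RefSeq promoter table is 52.4%.

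The other 4 members of the row lay near each other in level and had log2 fold changes of -0.22 to -0.07. Prss42 had 40.3, 49.1, 56.0 and 43.4 CPM in replicates 1 to 4 labelled knockout and 63.3, 47.8, 35.9 and 51.8 CPM in those labelled wild type. Its wild-type-labelled libraries spread more widely than the labels differed, and the log2 fold change of -0.07 (standard error 0.156, edgeR adjusted p = 0.798) was 0.11 without replicate 1 labelled wild type. Prss44 had 38.1, 34.1, 36.6 and 35.0 CPM against 42.7, 36.6, 40.9 and 39.0 CPM in the same order of libraries (adjusted p = 0.248). Prss43 had 34.7, 28.3, 30.5 and 31.7 CPM against 35.3, 34.1, 41.9 and 35.0 CPM (adjusted p = 0.154). Prss45 had 34.0, 32.3, 26.7 and 34.8 CPM against 40.9, 33.2, 37.7 and 34.8 CPM (adjusted p = 0.246). For each of these 3 genes the knockout-labelled mean was the lower one while the ranges overlapped, and their fitted standard errors of 0.0736 to 0.0997 were a sizeable part of their log2 fold changes of -0.22 to -0.15.

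**Figure D4:**
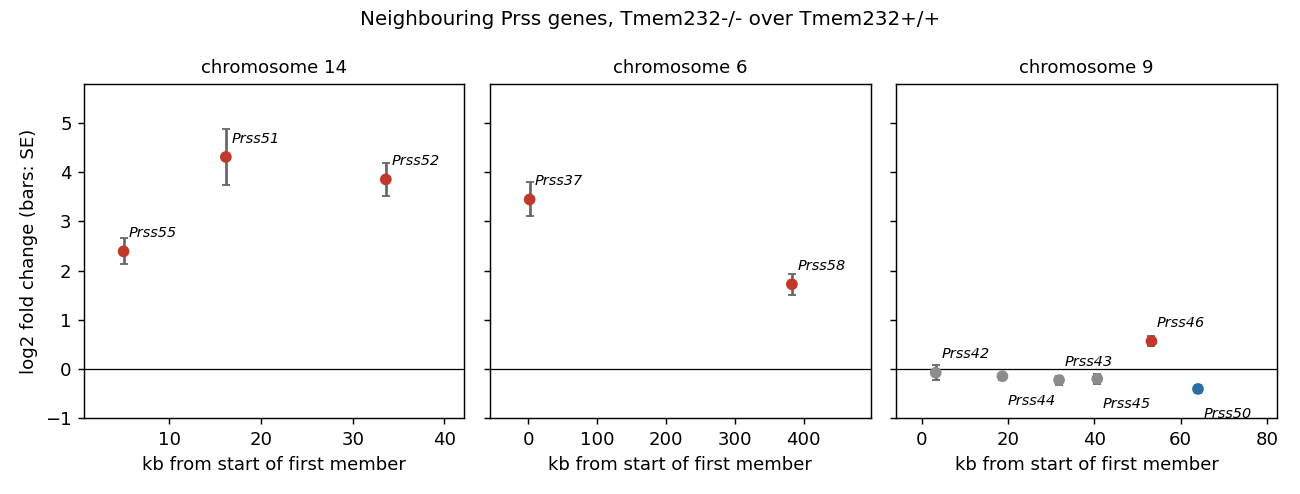
Log2 fold change (vertical axis, libraries labelled Tmem232-/- over those labelled Tmem232+/+, bars are standard errors) of neighbouring members against the distance of the middle of each gene from the start of the first member in kilobases. Red and blue points passed the test as higher and lower and grey points did not, so that the 3 genes on chromosome 14 are all red while chromosome 9 shows Prss46 at 0.56 beside Prss50 at -0.40.

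On chromosome 14 the 3 members lie between 64075435 and 64113751, within 38317 bases that hold no other gene of the table, and all 3 passed the test as higher. Prss55 lies on the minus strand and Prss51 on the plus strand with 75 bases between their annotated starts, so that they are transcribed away from each other, and Prss52 follows on the plus strand. The ratio of Prss51 to Prss55 counts was 0.131 ± 0.0329 in the knockout-labelled libraries and 0.0268 ± 0.0257 in the others (SD, n = 4 each), where the latter rests on 0 to 6 counts of Prss51 per library.

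On chromosome 6 the pair Prss37 and Prss58 spans 385568 bases. A gene that is no member, Mgam, which encodes an intestinal enzyme that digests starch, lies between them and was also higher, with 5.44 ± 1.06 CPM under the knockout label and 2.65 ± 0.350 CPM under the other (SD, n = 4 each), a log2 fold change of 1.04 (standard error 0.178, edgeR adjusted p = 0.00207). The sequences before the pair are shown because both genes rose, at chr6:40519536-40519758 for Prss37 and chr6:40900388-40900637 for Prss58, read on the minus strand from RefSeq on GRCm38.p6, with the 50 bases nearest to the RefSeq gene start in capitals. The deposited span of Prss37 reaches to 40519546, so by that span the last bases shown for it lie inside the gene.
Prss37: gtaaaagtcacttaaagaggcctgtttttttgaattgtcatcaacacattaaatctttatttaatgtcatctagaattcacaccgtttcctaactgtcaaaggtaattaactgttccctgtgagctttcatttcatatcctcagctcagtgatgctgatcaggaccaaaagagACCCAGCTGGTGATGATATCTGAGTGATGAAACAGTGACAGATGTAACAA
Prss58: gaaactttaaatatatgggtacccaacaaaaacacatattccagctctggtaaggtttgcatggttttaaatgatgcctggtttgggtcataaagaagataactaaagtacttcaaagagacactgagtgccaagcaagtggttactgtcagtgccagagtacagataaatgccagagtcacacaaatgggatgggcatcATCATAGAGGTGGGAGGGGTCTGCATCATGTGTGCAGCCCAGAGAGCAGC
G and C make up 37.2% and 44.0% of these bases.

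Of the 33 members, 23 had a window in the RefSeq promoter table, from 250 bases before to 50 bases after the annotated start, and Prss51, Prss52 and Prss55 were not among them. A member such as Prss23 has several windows, so that the counts of members below and the shares of all windows are unlike measures. The letters TGACGTCA, the cAMP response element, stood in a window of 0 of the 23 members on either strand and in 1.79% of all windows. The shorter TGACG, which the former contains, stood in a window of 4 of the 23 members (Prss23, Prss28, Prss35 and Prss38) and in 20.8% of all windows. The letters TATAAA stood in a window of 1 of the 23 members (Prss28) and in 13.6% of all windows. None of the members that passed the test and had a window held any of these letters in it.

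Members also neighbour each other on 3 other chromosomes. The pair on chromosome 1, Prss39 and Prss40, did not pass the test. On chromosome 17, 6 members lie within 167385 bases, of which Prss21, Prss33 and Prss41 were tested and did not pass and Prss22, Prss30 and Prss32 had too few counts. On chromosome 7, Prss53, Prss8 and Prss36 lie within 61282 bases, and Prss8 alone passed the test.

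Prss8, which encodes prostasin, a membrane protease of epithelia that activates the epithelial sodium channel, was the scarcest member to pass. It had 3, 3, 6 and 7 counts in replicates 1 to 4 labelled knockout and 12, 11, 11 and 11 counts in those labelled wild type, or 0.200, 0.188, 0.380 and 0.430 CPM against 0.748, 0.666, 0.697 and 0.676 CPM. The labels did not overlap and the log2 fold change was -1.19 (standard error 0.334, edgeR adjusted p = 0.041). The adjusted p ranged from 0.00709 to 0.18 over 15 alternatives and was above 0.05 in 10 of them, where the log2 fold change was -1.32 to -1.02, so the call rests on few counts and on the settings while the direction was the same in these fits. Prss8 also shares 122 bases with Kat8, which had 107.5 CPM under the knockout label and 99.3 CPM under the other, and reads on the shared bases could not be told apart.

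Prss35 and Prss23 are related genes studied mostly in the ovary. Prss35 had 91.4, 113, 112 and 129.9 CPM in replicates 1 to 4 labelled knockout and 77.8, 105, 71.5 and 102 CPM in those labelled wild type. It was among the most abundant members per length (29.5 ± 6.56 FPKM under the wild-type label, SD, n = 4) and its ranges overlapped, with a log2 fold change of 0.33 (standard error 0.138, edgeR adjusted p = 0.17). Prss23 had 5.12, 9.23, 7.08 and 6.33 CPM against 6.42, 6.05, 4.50 and 5.83 CPM in the same order, with a log2 fold change of 0.28 (adjusted p = 0.368). Both were higher in the mean under the knockout label, and neither passed under any alternative that was tried.

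Prss38 was the third member whose lower knockout-labelled libraries did not overlap the others, and 6.88% of all tested genes were separated in this direction. The libraries gave 7.39, 7.34, 7.40 and 7.25 CPM in replicates 1 to 4 labelled knockout and 10.3, 8.11, 8.68 and 8.17 CPM in those labelled wild type. The knockout-labelled values were nearly equal, and the log2 fold change of -0.26 (standard error 0.111, edgeR adjusted p = 0.168, exact permutation test, two-sided p = 0.0286) did not pass the test across all genes. In the opposite direction 7 members did not overlap, the same 7 that passed the test as higher, beside 11.8% of all tested genes.

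Prss48 had 11.3, 9.73, 9.80 and 9.65 CPM in replicates 1 to 4 labelled knockout and 11.5, 10.2, 13.2 and 13.4 CPM in those labelled wild type, a log2 fold change of -0.25 (edgeR adjusted p = 0.197). Its whole span lies within Sh3d19, so that its counts are uncertain. Prss56, known for its effect on the size of the eye, had 10.4, 7.85, 9.11 and 11.9 CPM against 11.8, 11.4, 15.3 and 12.8 CPM in the same order (log2 fold change -0.39, adjusted p = 0.117). Prss47 had 14.2, 11.7, 12.8 and 11.7 CPM against 15.5, 11.3, 14.4 and 10.5 CPM (-0.04, adjusted p = 0.88). These 3 genes overlapped between the labels, and the sign of Prss47 changed with the library left out.

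Prss12, which encodes neurotrypsin, a protease that cuts agrin at synapses, had 1.53, 1.70, 1.26 and 1.91 CPM in replicates 1 to 4 labelled knockout and 2.74, 1.88, 1.90 and 2.15 CPM in those labelled wild type (log2 fold change -0.43, edgeR adjusted p = 0.217). Prss36, which encodes a polyserase, a chain of several protease domains, had 3.19, 3.77, 3.98 and 5.53 CPM against 5.86, 3.63, 6.02 and 3.62 CPM (-0.21, adjusted p = 0.595). Prss41, another testis-specific serine protease, had 2.73, 3.14, 2.66 and 3.26 CPM against 3.37, 2.54, 2.53 and 2.33 CPM (0.13, adjusted p = 0.668). At these levels the ranges of the labels overlapped for all 3.

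The last tested members, Prss33 and Prss53, had a mean under 1 CPM over the 8 libraries. Prss33 was highest in replicate 3 labelled wild type at 1.20 CPM and Prss53 in replicate 4 labelled knockout at 1.75 CPM. Prss53 shares 553 bases with Zfp646, which had 338 CPM under the knockout label and 347 CPM under the other, so that its counts are uncertain. Prss12, Prss38 and Prss39 share 3135, 240 and 647 bases with annotated long noncoding RNAs that were not analysed here. The 6 members that were not tested, Prss16, Prss22, Prss28, Prss30, Prss32 and Prss57, had at most 12 counts in any library, reached by Prss16 in replicate 3 labelled wild type. Prss57, a protease of neutrophil granules, had at most 4.93 estimated counts, and Prss30 had 1 count in all 8 libraries together. A library without a count allows up to 3 counts by counting error alone.

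Of the 18 tested members that did not pass, 12 had a log2 fold change below 0 and 6 above 0. Their median was -0.12, beside -0.05 for all tested genes, and 6 had an unadjusted edgeR p under 0.05. The shares of all tested genes below 0 and at this unadjusted level are not given here, so that these counts are a description. Summed over all 33 members, the libraries labelled knockout had 806, 771, 718 and 830.4 CPM and those labelled wild type 670.2, 606, 688 and 652 CPM. The 7 higher members alone summed to 213 ± 31.6 and 88.9 ± 9.23 CPM, and the other 26 to 568 ± 29.0 and 565 ± 27.0 CPM (SD, n = 4 each). The 7 members were picked by this contrast, so that the sums over them and over the others are a description.

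**Figure D5:**
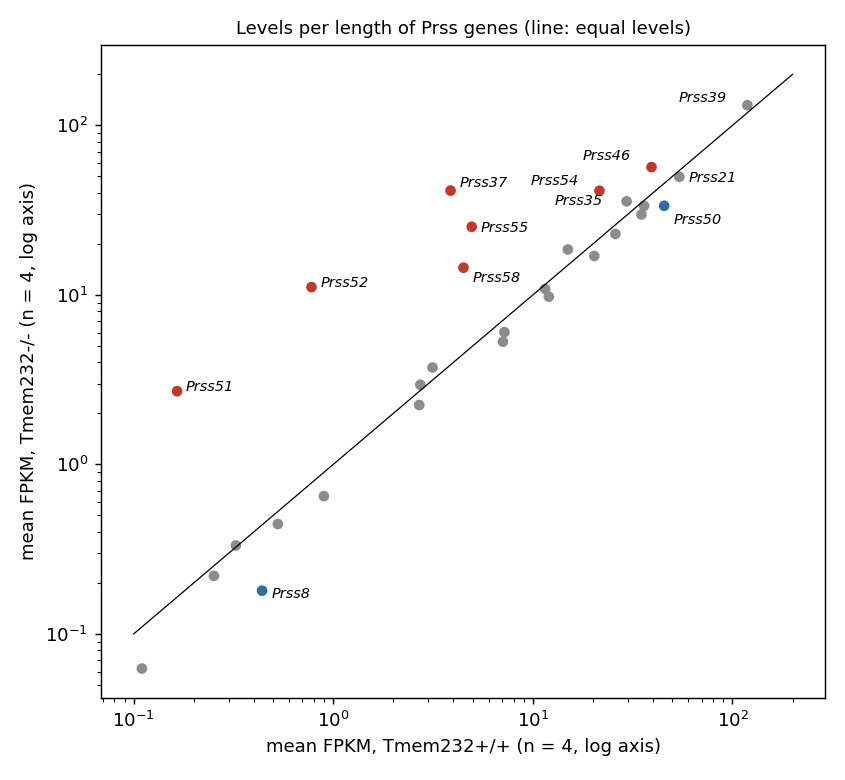
Mean FPKM, a level per length of transcript, of members under the Tmem232-/- label (vertical, log axis) against the Tmem232+/+ label (horizontal, log axis), n = 4 libraries each, with a line of equal levels. Prss39 is highest under both labels (119 and 132), and the red points far above the line are members with low wild-type levels, such as Prss37 (3.87 to 41.2) and Prss52 (0.778 to 11.1).

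Per length, the members at the top under the wild-type label were Prss39, Prss21, Prss50 and Prss46 with mean levels of 119, 54.2, 45.5 and 39.3 FPKM. Under the knockout label the order was Prss39, Prss46, Prss21 and Prss37 with 132, 56.8, 49.7 and 41.2 FPKM. Prss50 went from place 3 to place 7 and Prss54 from place 9 to place 5 of the 33. The 5 members with a fold change of 2 or more held places 16, 17, 18, 23 and 28 under the wild-type label, with mean levels of 0.165 to 4.94 FPKM, and all of them stood higher in the order under the knockout label. Neighbours in this order are often closer than their spread: under the knockout label Prss37 (41.2 ± 11.9 FPKM) and Prss54 (41.2 ± 3.33 FPKM) cannot be ranked.

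Other trypsin-like proteases, matched by symbol, include acrosin (Acr), the main protease of the acrosome, and the kallikreins (Klk) and Tmprss genes. Of 41 listed genes, 12 were tested. In edgeR 2 passed as higher and 0 as lower (6 and 0 at an unadjusted p under 0.05, and 5 and 0 in DESeq2). Of all tested genes 10.3% passed as higher and 1.46% as lower, and 2 of 12 is too few to set apart from that share. The median log2 fold change of the 12 was 0.45, beside -0.05 for all tested genes. Acr had 210.1 ± 14.3 CPM under the knockout label and 183 ± 15.7 CPM under the other (SD, n = 4 each), a log2 fold change of 0.20 (standard error 0.0794, edgeR adjusted p = 0.151). The 2 that passed were kallikreins, Klk1b27 with 6.20 ± 1.30 against 2.72 ± 1.49 CPM (log2 fold change 1.19, adjusted p = 0.0275) and Klk1b8 with 1.56 ± 0.941 against 0.140 ± 0.108 CPM (3.42, adjusted p = 0.00275), and the latter is named although it was chosen after its values were seen. The kallikrein genes are near copies of each other, so that reads can be split between them.

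Of 79 serine protease inhibitors (serpins, Spink and Wfdc genes) in the table, 34 were tested. In edgeR 0 passed as higher (1 at an unadjusted p under 0.05, and 1 in DESeq2), and 1 passed as lower, with a median log2 fold change of -0.02. Of all tested genes 10.3% passed as higher and 1.46% as lower. The lower gene was Serpine2, which encodes protease nexin-1, an inhibitor of thrombin and trypsin-like proteases, with 5.08 ± 0.411 CPM under the knockout label and 7.10 ± 0.750 CPM under the other (SD, n = 4 each), a log2 fold change of -0.48 (standard error 0.125, edgeR adjusted p = 0.0273). Leaving out a library ended this call in 5 of 8 cases.

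A further list held genes noted for ADAM3 on sperm or for passage of sperm into the oviduct, Adam3 itself included and Prss37 and Prss55 left out. Its genes need not act together. Of its 17 tested genes, 5 passed as higher and 2 as lower, beside 10.3% and 1.46% of all tested genes, with a median log2 fold change of 0.14. The higher ones were the chaperones of the endoplasmic reticulum Calr3 (25.4 ± 5.60 against 5.51 ± 1.40 CPM, log2 fold change 2.21) and Pdilt (102.8 ± 11.6 against 41.0 ± 7.76 CPM, 1.32), Galntl5 (94.7 ± 11.5 against 29.0 ± 5.08 CPM, 1.71), and 2 genes named after their values were seen, Adam1a (1.28) and Ace (1.08). The lower ones, also named after their values were seen, were Tex101 (414 ± 22.4 against 505 ± 53.7 CPM, log2 fold change -0.29, adjusted p = 0.0451) and Ly6k (110.2 ± 9.84 against 135 ± 10.5 CPM, -0.29, adjusted p = 0.043). Both lower genes encode surface proteins that germ cells make from meiosis on, Tex101 is also in the list of spermatocyte markers, and at most 1 of the 2 was called once any library was left out. Of the spermatid markers above, all 12 elongating and 9 of 10 round ones passed as higher. The part of these spermatid markers in the values of the ADAM3 and oviduct list was not tested.

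Among 19 tested genes of the acrosome or sperm head membrane, 12 passed as higher and 0 as lower in edgeR (14 and 0 at an unadjusted p under 0.05, and 14 and 0 in DESeq2). Of all tested genes 10.3% passed as higher and 1.46% as lower. The median log2 fold change of the 19 was 1.01. This list shares 5 genes with the round spermatid markers above, and 4 of them (Acrv1, Izumo1, Spaca1 and Spaca7) are among the higher genes of both, and the part of the higher spermatid markers in these values was not tested. The leading ones were the hyaluronidase Hyal5 (69.6 ± 9.14 against 24.7 ± 3.09 CPM, log2 fold change 1.50), Eqtn (65.0 ± 12.02 against 26.1 ± 5.05 CPM, 1.32) and Acrv1 (139 ± 19.0 against 60.6 ± 12.3 CPM, 1.20).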

How the data were processed

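RNA from whole testes was read in 8 libraries, 1 per mouse, grouped by the genotype in their labels. The authors mapped paired reads to GRCm38.p6 with HISAT and Bowtie2, counted them with StringTie and featureCounts and tested with DESeq2. The deposited estimated counts are not normalized, and 10.71% to 11.2% of the genes per library have a count that is not whole, 4 members among them. Deposited FPKM are the authors' values per length and depth. Their deposited means, fold changes and p-values were not used.

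Counts were rounded and fitted on the whole table with edgeR 4.0.16 in R 4.3.3 (TMM, default filter on low counts, quasi-likelihood test, no covariates), with Benjamini-Hochberg adjustment over 15787 genes. Single values were compared by the exact permutation test over all 70 arrangements. Steps were tested on simulated data. Alternatives were DESeq2 1.42.0, its size factors, library size alone, no filter, at least 10 counts in every library, log2(FPKM + 1) and log2(FPKM + 0.1) with limma 3.58.1, a block by replicate number, and fits without each library in turn. Tables were made in Python 3.11.15.

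Members and lists were chosen with earlier results of these data known. All members are accounted for, and values per library are given for members that passed the test or had a mean of at least 1 CPM. From each related list the 3 largest changes of at least 1 CPM that passed, and Acr, are named. Protein sequences were not used here.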

Additional observations from a re-analysis of the deposited data

Results flagged for a closer look

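Library values far from the others of their label were sought in 52 groups of 4 libraries with Dixon's test at its 95% level, whose ratio divides the gap between the outermost value and the next by the whole range. They were found in 3 groups, where chance gives about 2.6. Prss40 had 19.06 CPM in replicate 3 labelled Tmem232+/+ (ratio 0.858). Prss43 had 41.86 CPM in the same library (ratio 0.841). Prss48 had 11.31 CPM in replicate 1 labelled Tmem232-/- (ratio 0.91).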

How the results depend on the processing

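The 7 higher members were called and higher in all 110 alternative values that could be computed for them. The number of higher members was 5 with at least 10 counts in every library, where Prss51 and Prss52 were not tested, and 7 to 9 without a library. The number of lower members was 1 under DESeq2, without a filter, with at least 10 counts in every library and with the replicate block, and 0 to 2 without a library: without Tmem232+/+ replicate 1 neither Prss50 nor Prss8 was called. Prss33 and Prss53, under 1 CPM in the mean and not called, took either sign over 15 alternatives (-0.49 to 0.15 and -0.33 to 0.52) and are not counted here. Of 397 alternative values of the other 25 tested members, 377 kept their direction and their side of the threshold, 11 lost the call, 3 gained it and 6 changed sign. The signs that changed among these were those of Prss47 (0.0029 without a filter, -0.13 to 0.10 without a library), Prss21 (-0.16 to 0.018 without a library) and Prss42 (-0.17 to 0.11 without a library), and the cause was not tested. For Prss51 the log2 fold change was 1.63 as log2(FPKM + 1), where the added 1 exceeds its level in each wild-type-labelled library, and 3.90 to 5.43 without a library.

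Other trypsin-like proteases passed as higher in 5 genes under DESeq2, 4 without a filter, 1 with at least 10 counts in every library and 1 to 3 without a library. Inhibitors passed as higher in 1 gene under DESeq2, with its size factors, without a filter and with the replicate block and in 0 to 1 without a library, and as lower in 0 with the replicate block and 0 to 1 without a library. In the ADAM3 and oviduct list 0 genes passed as lower with DESeq2 size factors, without a filter and with the replicate block. With at least 10 counts 1 passed as lower, and without a library 0 to 1. The cause of these shifts was not tested. For Tmem232 the log2 fold change was 0.26 with the replicate block, which did not pass the test, and 0.21 to 0.32 without a library, where 4 of 8 fits did not pass (adjusted p of 0.0858 to 0.0892). Same-numbered libraries of the labels had correlations of -0.332 to 0.0716 and 0 of 4 matched their own number best, so the numbers were not taken as pairs, and with the block 7 members were higher. Low counts limit Prss8 and Prss51, and the median log2 fold change of all genes moved by 0.0245 with DESeq2 size factors, by -0.0338 with library size alone, by 0.0536 without a filter and by 0.0469 without Tmem232+/+ replicate 1.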
